A study of Mus musculus with 9 samples.

Results

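The genes described here encode the proteins of the cytosolic ribosome. They were picked by name, as every gene of the count table whose symbol is Rpl or Rps followed by a number, with Rplp0, Rplp1, Rplp2 and Rpsa added and with the kinases named Rps6k and the named pseudogenes left out. The rule found 83 of 23466 genes, 34 of the small ribosomal subunit (Rps names and Rpsa) and 49 of the large subunit (Rpl names). In the GENCODE M21 annotation 80 of them are protein coding and 3, Rps3a2, Rps3a3 and Rpl6l, are of a pseudogene type. A further 160 rows named as ribosomal protein pseudogenes were left out. The RNA came from group 2 innate lymphoid cells (ILC2s), lymphocytes resident in tissue barriers that make type 2 cytokines, sorted as CD45+/DAPI-/Lin-/St2+/Thy1+ cells from wild-type C57/Bl6 mice aged 10 weeks. The 3 groups of 3 libraries were ILC2s of brain meninges from mice given a contusion of the spinal cord, at 80 kdyn, 24 h earlier (injured meninges), of brain meninges without injury (uninjured meninges) and of lung without injury (uninjured lung). Each group pooled 5 mice, and the labels do not say whether each library is a pool of its own, so p-values measure the spread between libraries, which may be technical. No group was labelled as sham-operated, so the contusion and the surgery around it cannot be told apart.

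Cytosolic ribosomes are built in the nucleolus from ribosomal RNA and about equal numbers of copies of each ribosomal protein, and they translate the messages of the nuclear genome. In mammals most ribosomal protein messages start with a run of C and T bases at the cap, the terminal oligopyrimidine (TOP) motif, through which the mTORC1 kinase and the binding protein Larp1 control their translation together. Lymphocytes leaving rest are known to make more ribosomes, and Myc is a known activator of ribosomal protein genes.

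Library totals ranged from 13407277 to 18253462 counts, and mitochondrial ribosomal RNA took 23.5% to 32.5% of them. Injured meninges 2 stood apart with the fewest genes detected, 13465 against 15761 to 18452 in the other libraries. Defining genes of the sorted cells were present throughout. Il1rl1, which encodes St2, had 1848 to 2687 CPM (counts scaled to a common library size, with library sizes adjusted by TMM, the trimmed mean of M values) over the 9 libraries and Gata3, the transcription factor ILC2s need, 494 to 645 CPM. Thy1 was lower in injured meninges, at 51.3 to 92.3 CPM against 166 to 278 CPM in uninjured meninges (log2 fold change -1.73 ± 0.29 (SE), adjusted p = 0.0218, edgeR quasi-likelihood test with Benjamini-Hochberg adjustment). Rora and Il7r, listed with these genes, went the other way, with log2 fold changes of 1.04 ± 0.21 and 0.68 ± 0.18. Both were higher in every injured than in every uninjured meninges library, against 5.35% of all genes tested, and edgeR called neither.

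The bases around the start of 6 of these genes are shown because the family is known for a run of C and T there. They are RefSeq sequences on the GRCm38.p6 build, each from 50 bases before the annotated start to 30 bases after it, written 5′ to 3′ on the gene's strand. Capitals mark unbroken runs of at least 6 C or T bases. Rps27, Rps18 and Rps12 are members whose injured and uninjured meninges did not overlap, and Rpl18, Rps15a and Rps3 are members whose meninges and lung did not overlap.
Rps27: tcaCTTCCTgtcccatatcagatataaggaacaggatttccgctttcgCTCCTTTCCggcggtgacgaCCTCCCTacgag
Rps18: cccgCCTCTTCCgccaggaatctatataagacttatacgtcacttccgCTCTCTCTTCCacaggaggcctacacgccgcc
Rps12: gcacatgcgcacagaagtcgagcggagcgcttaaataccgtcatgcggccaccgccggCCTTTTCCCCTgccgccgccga
Rpl18: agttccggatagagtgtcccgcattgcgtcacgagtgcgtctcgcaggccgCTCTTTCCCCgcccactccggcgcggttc
Rps15a: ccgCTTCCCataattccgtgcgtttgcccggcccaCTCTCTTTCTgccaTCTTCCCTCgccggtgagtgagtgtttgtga
Rps3: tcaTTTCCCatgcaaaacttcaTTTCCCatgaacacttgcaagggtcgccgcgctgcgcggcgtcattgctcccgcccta
The windows are Rps27 at chr3:90213619-90213698 (minus strand), Rps18 at chr17:33955636-33955715 (minus strand), Rps12 at chr10:23787180-23787259 (minus strand), Rpl18 at chr7:45718021-45718100 (plus strand), Rps15a at chr7:118116118-118116197 (minus strand) and Rps3 at chr7:99483680-99483759 (minus strand). In these windows, Rps18 and Rps12 each have a run of 11 bases, Rpl18 and Rps15a of 10 and Rps27 of 9, whereas the longest run in the window of Rps3 is 6, found only before the start.

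The RefSeq promoter table held 60 of the 83 genes. A run of at least 8 C or T bases lay in the same 80-base window in 65.0% of the 60 genes, against 33.6% of all 27025 promoters, while on the opposite strand the shares were 21.7% and 35.5%. In the longer promoter of 250 bases before to 50 after the start, searched on both strands, CTCTTTC was present in 18 of the 60 genes and 9.28% of all promoters, and CTTTCC, which can overlap it, in 51.7% and 29.3%. The letters CCGGAAG, the core bound by factors of the ETS family, were present in 41.7% of the 60 genes and 9.93% of all promoters. AGATGGC, the core of the YY1 motif, was present in 13.3% and 7.31%. These matches describe the letters of the windows and not binding.

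Summed over the 83 genes, ribosomal protein transcripts took less than 1% of each library. They made up 0.808%, 0.654% and 0.526% of the counts in injured meninges 1, 2 and 3, against 0.819%, 0.917% and 0.800% in uninjured meninges 1, 2 and 3 and 0.698%, 0.599% and 0.585% in uninjured lung 1, 2 and 3. Injured meninges 1 lay within the range of uninjured meninges, and injured meninges 2 and 3 lay below it. The 3 libraries of uninjured meninges were all above the 3 of lung. The means were 0.663 ± 0.141%, 0.845 ± 0.0628% and 0.627 ± 0.0612% (SD, n = 3 each) for injured meninges, uninjured meninges and lung. With mitochondrial ribosomal RNA taken out of the totals, the shares were 1.16%, 0.867% and 0.688% in injured meninges, 1.21%, 1.24% and 1.06% in uninjured meninges and 0.953%, 0.865% and 0.799% in lung, with the same libraries overlapping. In bulk RNA such as this, a change in the cells present and a change in the RNA per cell cannot be told apart.

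**Figure D1:**
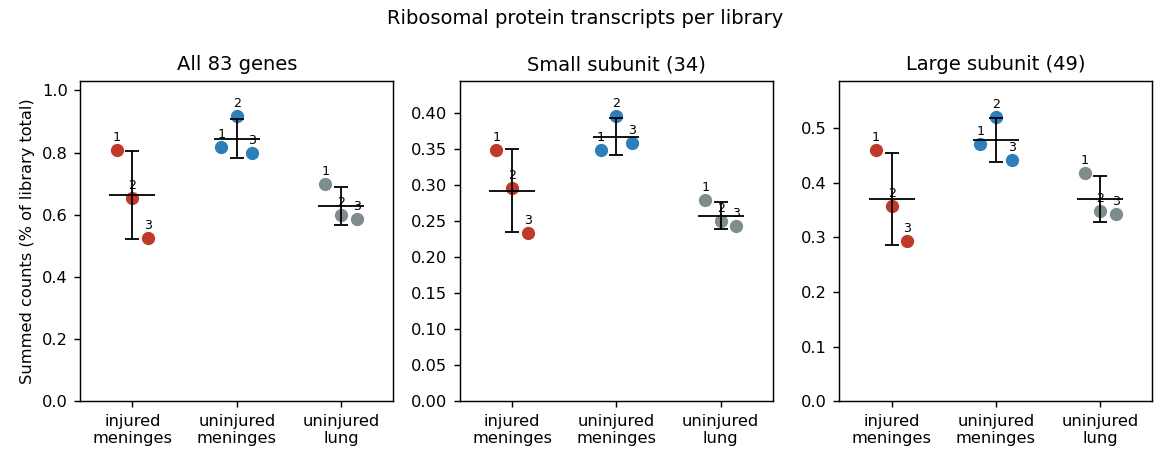
Summed counts of the ribosomal protein genes as a percent of each library's total, for all 83 genes, the 34 of the small subunit and the 49 of the large subunit. Points are libraries with their numbers, horizontal lines are means and bars are SD (n = 3 each); injured meninges spread from 0.526% to 0.808%, wider than the other groups.

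Small subunit genes summed to 0.348%, 0.296% and 0.233% of the counts in injured meninges, against 0.348%, 0.396% and 0.358% in uninjured meninges and 0.279%, 0.251% and 0.243% in lung. Large subunit genes summed to 0.460%, 0.358% and 0.293% in injured meninges, against 0.471%, 0.521% and 0.442% in uninjured meninges and 0.418%, 0.348% and 0.342% in lung. The ratio of small to large subunit counts was 0.757, 0.827 and 0.795 in injured meninges, 0.740, 0.760 and 0.811 in uninjured meninges and 0.668, 0.720 and 0.710 in lung. This ratio overlapped between injured and uninjured meninges and was lower in every lung library than in every library of uninjured meninges. Rpl4 alone gave 6.72% to 10.1% of the ribosomal protein counts of a library. The 160 left-out pseudogene rows held 0.0144% to 0.0199% of the counts of each library. Near-identical processed copies exist for many of these genes, and the sources used here do not say how reads matching several copies were counted. The level of any single member and the summed shares above are therefore uncertain as measures of the RNA in the cells.

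On a scale per kilobase of coding length, the members' levels were uneven. Coding length was that of the longest annotated coding sequence among a gene's transcripts, so these levels and their order depend on that choice. The mean over the 9 libraries had a median of 163 CPM per kilobase over the 80 protein-coding members, with the middle 50% of them between 93.5 and 230.2, and 56 of 80 lay within 2-fold of that median. Rps27, a zinc-finger protein of the small subunit, was highest at 633 CPM per kilobase. Rpl41, with the shortest of the lengths used (138 bases), followed at 527 and Rpl4, which lines the exit tunnel of the large subunit, at 450.4. Whether the message of Rpl41 in these cells has that coding length was not tested. The lowest were Rpl24 at 2.56, Rpl23a at 14.7 and Rpl35 at 15.7 CPM per kilobase. Rpl23a and Rpl35 sit at the tunnel exit, where the nascent chain leaves. Rpl24 had 0.536, 0.159 and 3.50 CPM in injured meninges, 0.271, 0.708 and 0 CPM in uninjured meninges and 0.368, 4.56 and 0.767 CPM in lung. In uninjured meninges 3 it was at a count of 0, which allows up to 0.201 CPM (3 counts, counting error only). The 0.159 CPM of injured meninges 2 was also under its limit of 0.238 CPM, and no difference of Rpl24 between groups was detectable at this depth. The paralogs Rpl22l1, Rps27l and Rpl7l1 were also low, at 27.0, 25.6 and 18.8 CPM per kilobase.

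The first comparison asks what spinal cord injury does to meningeal ILC2s within 24 h. Most ribosomal protein genes had lower levels in injured than in uninjured meninges, by modest amounts, and no single member passed the test. Of 81 members tested, 66 had a negative log2 fold change and 15 a positive one, against 50.2% negative and 49.4% positive over all 15117 genes tested. The members' median log2 fold change was -0.33, with the middle 50% between -0.53 and -0.11, against a median of -0.01 over all genes. No member was called at an adjusted p under 0.05, where 0.192% of all genes were. That is 0 called higher, against 0.132% of all genes, and 0 called lower, against 0.0595%. Rpl30 alone had an unadjusted p under 0.05, so 1 of 81, where 8.94% of all genes had. DESeq2 likewise called 0 members, with 1 at an unadjusted p under 0.05. The typical error was as large as the typical difference, with a median SE of 0.36 over the members. Rps3a3 and Rpl6l were below the filter on low counts.

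The size of this difference rested in large part on injured meninges 3, which had the lowest level of the 9 libraries for 40 of the 83 members. Without that library the members' median was -0.17 against -0.10 over all genes, with 58 of 81 negative. Without injured meninges 1 the median was -0.45 against -0.14 over all genes, with 71 negative and no member called. Leaving out injured meninges 2, with its few detected genes, the median was -0.31 against -0.04, with 72 negative. The median CPM over the members was 91.1, 68.2 and 47.6 in injured meninges 1, 2 and 3, against 84.2, 92.2 and 81.4 in uninjured meninges 1, 2 and 3 and 63.9, 71.3 and 63.0 in lung 1, 2 and 3. Injured meninges 1 was thus within the range of uninjured meninges, injured meninges 2 within that of lung and injured meninges 3 below both.

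Levels of other cells' markers differed as well, and their part in the ribosomal protein values was not tested. The sum of 12 monocyte and macrophage markers was 612 to 829 CPM in injured meninges, against 1307 to 1524 CPM in uninjured meninges, mostly from Ccr2, which ILC2s can express too and which was lower after injury (log2 fold change -1.17 ± 0.20, adjusted p = 0.0203, edgeR quasi-likelihood test with Benjamini-Hochberg adjustment). Without Ccr2, the markers summed to 175, 80.1 and 67.7 CPM in injured meninges, against 104, 65.7 and 47.7 CPM in uninjured meninges, so these groups overlapped. Of the 11 markers tested, 8 had positive log2 fold changes after injury, against 49.4% of all genes tested, with a median of 0.55. Cd68 and Mrc1 were higher in every injured than in every uninjured library without being called. Of all genes tested, 5.35% were higher without overlap. Fibroblast markers summed to 33.6, 16.3 and 3.88 CPM in injured meninges, against 80.0, 3.28 and 30.6 CPM in uninjured meninges. Of these 10 markers, Lum and Pdgfra were lower in every injured than in every uninjured library without being called, against 6.79% of all genes tested. T cell markers summed to 246.9 CPM in injured meninges 2, against 47.5 to 137 CPM in the other 8 libraries. Endothelial markers summed to 76.4 to 191 CPM in injured meninges, against 64.5 to 287 CPM in uninjured meninges.

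**Figure D2:**
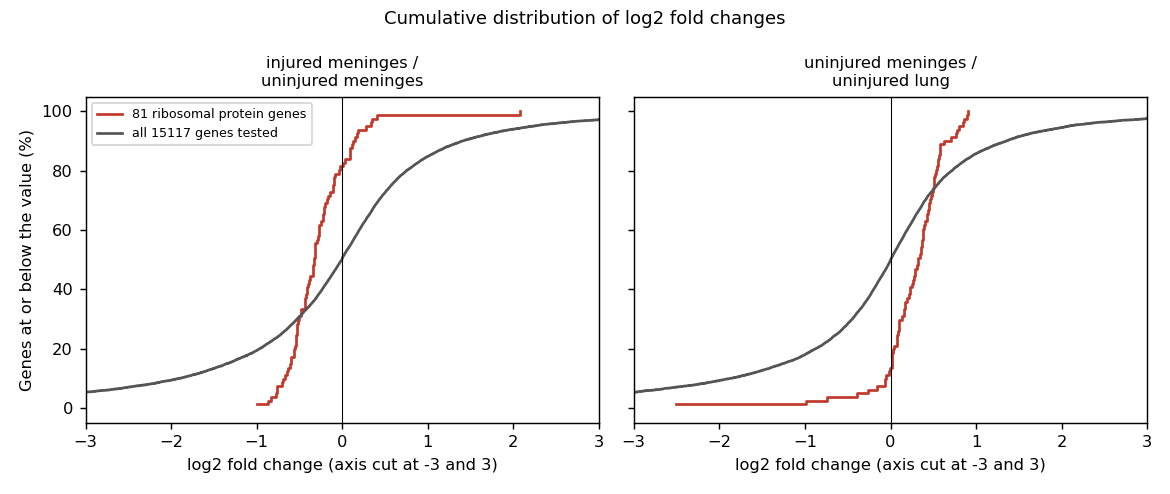
Cumulative share of genes (percent) against log2 fold change, for the 81 ribosomal protein genes tested (red) and all 15117 genes tested (grey), in injured against uninjured meninges (left) and uninjured meninges against uninjured lung (right). The red curve lies left of 0 for 66 of 81 members in the first and right of 0 for 70 of 81 in the second, and it is steeper than the grey one.

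The injured and uninjured libraries did not overlap for 13 tested members. All 3 injured libraries were lower than all 3 uninjured ones for 12 of them, which is 14.8% of the 81, against 6.79% of all genes tested. These were Rps12, Rps13 and Rps18 of the small subunit and Rpl3, Rpl7a, Rpl7l1, Rpl12, Rpl27, Rpl30, Rpl35a, Rpl36a and Rpl41 of the large subunit. Rps27 was the single member higher in all 3 injured libraries, against 5.35% of all genes tested. Such shares compare genes of unlike spread, since the median SE was 0.36 over the members and 0.95 over all genes tested.

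Rpl30, a small protein of the large subunit, had the smallest p of the members. It was at 97.3, 65.1 and 62.6 CPM in injured meninges 1, 2 and 3, against 111.9, 147 and 127 CPM in uninjured meninges 1, 2 and 3. Every injured library was below every uninjured one, and injured meninges 1 came closest to them. The log2 fold change was -0.78 ± 0.29 (SE, adjusted p = 0.478, edgeR quasi-likelihood test with Benjamini-Hochberg adjustment), and the smallest adjusted p under any alternative was 0.226.

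Rpl3, which lies next to the peptidyl transferase centre, had 110.1, 89.0 and 50.1 CPM in injured meninges, against 113, 163 and 119.7 CPM in uninjured meninges. The groups were separated by the narrow gap between injured meninges 1 and uninjured meninges 1, and the log2 fold change was -0.67 ± 0.32. Rps12 had 34.2, 20.2 and 19.9 CPM in injured meninges, against 37.8, 44.1 and 53.3 CPM in uninjured meninges, a log2 fold change of -0.86 ± 0.45. Here too injured meninges 1 was the closest to the uninjured libraries. Rps18, a protein of the head of the small subunit, had 94.0, 92.3 and 60.4 CPM in injured meninges, against 119, 149.6 and 96.8 CPM in uninjured meninges, a log2 fold change of -0.57 ± 0.31. Injured meninges 1 and 2 lay just under the lowest uninjured library and injured meninges 3 well under it.

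Rpl4 had the smallest SE of any member, 0.21. It was at 544, 575 and 387 CPM in injured meninges, against 762, 632 and 572 CPM in uninjured meninges, and the log2 fold change was -0.38 ± 0.21. Injured meninges 2 and uninjured meninges 3 overlapped, by a small margin.

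Rps27 went the other way. It was at 221, 183.5 and 176 CPM in injured meninges, against 166, 136.5 and 136 CPM in uninjured meninges, a log2 fold change of 0.41 ± 0.24 (adjusted p = 0.669, edgeR quasi-likelihood test with Benjamini-Hochberg adjustment). The lowest injured library was above the highest uninjured one. The other 14 members with a positive value were Rpl24, Rpl37, Rpl36, Rps6, Rps3a1, Rpl22l1, Rps19, Rpl28, Rpl17, Rpl7, Rpl23a, Rps28, Rpl10 and Rpl10a, with overlapping groups for each of them. Rps3a1 was among them at 161, 254.5 and 221 CPM in injured meninges, against 205, 183.5 and 194 CPM in uninjured meninges, and its sign turned to -0.02 without injured meninges 2.

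**Figure D3:**
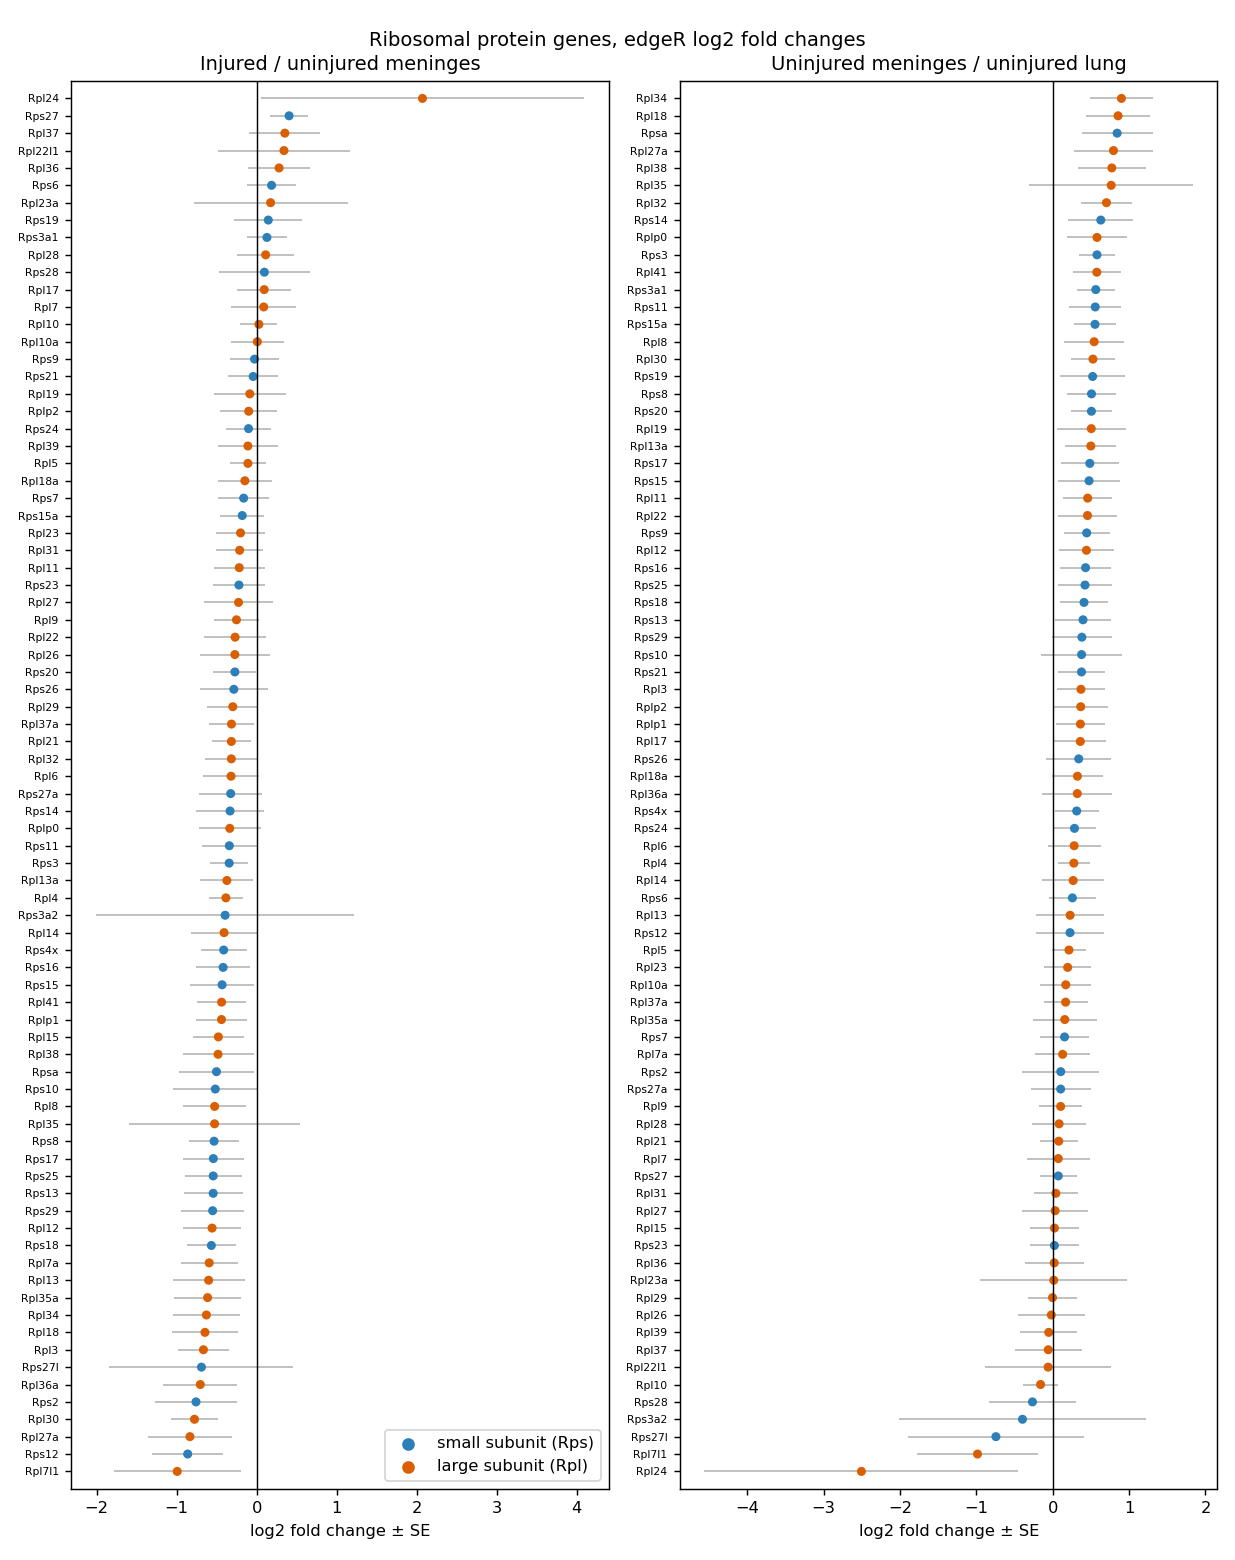
Log2 fold changes of 80 of the 81 ribosomal protein genes tested, from the edgeR fit, ordered by value in each panel; points are estimates and bars ± SE, blue for the small and orange for the large subunit. Most points lie left of 0 in injured against uninjured meninges and right of 0 in uninjured meninges against uninjured lung, and the median SE over the 81 genes is 0.36 in both.

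The second comparison sets ILC2s of the meninges against those of the lung, both without injury. It shares the 3 libraries of uninjured meninges with the first comparison, so a high value in those libraries moves both. Most ribosomal protein genes had higher levels in meninges than in lung, again by modest amounts and with no member passing the test. Of 81 members, 70 had a positive log2 fold change and 11 a negative one, against 50.1% positive and 49.9% negative over all genes. The median was 0.32, with the middle 50% between 0.08 and 0.50, against 0.00 over all genes. No member was called, where 0.635% of all genes were. That is 0 called higher in meninges, against 0.0397% of all genes, and 0 called lower, against 0.595%. At an unadjusted p under 0.05 there were 3 members, Rps3, Rps3a1 and Rpl34, where 7.98% of all genes had such a p, and DESeq2 called 0 members with 2 at that level.

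All 3 libraries of uninjured meninges were higher than all 3 of lung for 26 of the 81 members, or 32.1%, against 7.63% of all genes tested. By subunit these were 13 of 33 small subunit members and 13 of 48 large subunit members. The opposite held for Rpl10, against 10.6% of all genes tested. The members had a median SE of 0.36, against 0.955 over all genes tested, so the shares compare genes of unlike spread. Rpl10, which is added late to the large subunit and was named here for its values, had 167, 166.5 and 147 CPM in uninjured meninges, against 186, 179.9 and 171 CPM in lung. Its groups were separated by a small margin, and its log2 fold change was -0.16 ± 0.23. The median of small subunit members was 0.40 and that of large subunit members 0.25.

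Markers of other cells also differed between the groups, and their part in the ribosomal protein values was not tested. Of 8 lung epithelial markers, none was at 0 in all lung libraries, and their sum was 3.75 to 11.4 CPM in uninjured meninges, where Sftpd and Cldn18 were at 0, against 2229, 654 and 1351 CPM in lung 1, 2 and 3. Endothelial markers summed to 64.5 to 287 CPM in uninjured meninges, against 257 to 744 CPM in lung. The 10 fibroblast markers summed to 80.0, 3.28 and 30.6 CPM in uninjured meninges, against 156, 120 and 321 CPM in lung. Of the 10, 5 were lower in every library of uninjured meninges than in every lung library, against 10.6% of all genes tested. Among these, Dpt and Pcolce2 were called lower by the edgeR quasi-likelihood test with Benjamini-Hochberg adjustment (adjusted p = 0.0294 and 0.0136), where 0.595% of all genes tested were. Both were at 0 in uninjured meninges. Neutrophil markers went the other way, with all 6 tested positive in meninges, against 50.1% of all genes tested, and 0 called. They summed to 55.9, 7.27 and 59.7 CPM in uninjured meninges, against 3.19, 2.94 and 9.33 CPM in lung, so these groups overlapped. All 4 neural and glial markers tested were positive too, with 0 called.

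Rps3, which lies at the entry of the mRNA channel, had 301, 375 and 320.4 CPM in uninjured meninges, against 288, 186 and 193 CPM in lung. Lung 1 came close to the lowest library of meninges and the other lung libraries were far below. The log2 fold change was 0.58 ± 0.24 (SE, adjusted p = 0.495, edgeR quasi-likelihood test with Benjamini-Hochberg adjustment). Rps3a1 had 205, 183.5 and 194 CPM in uninjured meninges, against 118, 163 and 114 CPM in lung, a log2 fold change of 0.56 ± 0.25. Its values in meninges were close together, and all exceeded the highest lung library. Reads of Rps3a1 may be shared with its copies Rps3a2 and Rps3a3, which had at most 4.19 and 0.706 CPM in any library.

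Rpl34 had 42.5, 82.7 and 61.4 CPM in uninjured meninges, against 38.0, 39.5 and 22.5 CPM in lung, a log2 fold change of 0.90 ± 0.42. Uninjured meninges 1 was only slightly above the lung libraries. Rpl32 had 96.3, 103.8 and 112 CPM in uninjured meninges, against 55.4, 64.0 and 72.5 CPM in lung, a log2 fold change of 0.70 ± 0.33, with a clear gap between the groups. Rpl18, a gene in which mutations are known in Diamond-Blackfan anaemia in humans, had 68.3, 83.7 and 129.7 CPM in uninjured meninges, against 60.9, 44.6 and 50.2 CPM in lung, a log2 fold change of 0.85 ± 0.42. Rps15a had 140.3, 144 and 105 CPM in uninjured meninges, against 77.9, 95.3 and 92.5 CPM in lung, a log2 fold change of 0.55 ± 0.28. For Rpl18 and Rps15a the groups were separated, but the lowest library of meninges lay near the highest of lung.

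**Figure D4:**
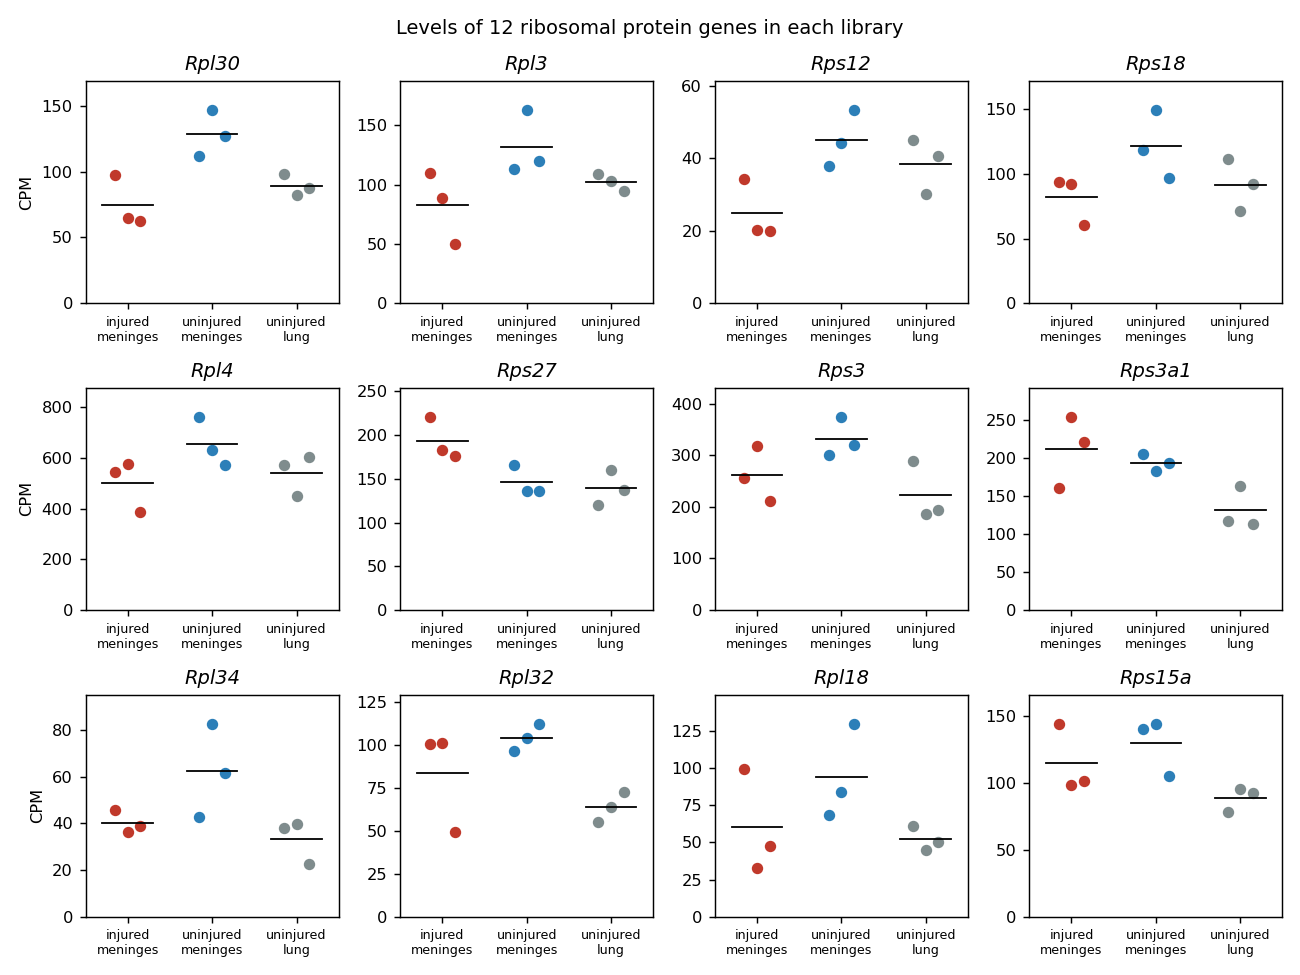
CPM (TMM-scaled) of 12 ribosomal protein genes in each library, being the 6 with the smallest p in each comparison; points are libraries and lines are group means. In the first 5 panels the injured libraries lie mostly below the uninjured ones, for Rps27 they lie higher, and in the last 6 the uninjured meninges lie above the lung.

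Of these 6 genes (Rps3, Rps3a1, Rpl34, Rpl32, Rpl18 and Rps15a), none separated the injured from the uninjured meninges. Rpl32 had 100.8, 101 and 49.1 CPM in injured meninges 1, 2 and 3, against 96.3 to 112 CPM in uninjured meninges, so injured meninges 3 alone was low. Rpl18 had 99.3, 32.9 and 47.6 CPM and Rps15a 144, 98.7 and 101 CPM in injured meninges, and for both injured meninges 1 was within the uninjured range. Rpl34 had 45.7, 36.2 and 38.7 CPM in injured meninges, near its levels in lung.

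The stalk proteins Rplp0, Rplp1 and Rplp2 draw the elongation factors to the ribosome. All 3 had negative values after injury and positive ones against lung, as had 81.5% and 86.4% of the 81 members tested. Their log2 fold changes were -0.34 ± 0.39, -0.44 ± 0.32 and -0.10 ± 0.36 in injured against uninjured meninges, and 0.58 ± 0.39, 0.36 ± 0.32 and 0.37 ± 0.36 in meninges against lung. Rplp1 had 85.9, 69.5 and 51.3 CPM in injured meninges, 84.2, 105.6 and 90.7 CPM in uninjured meninges and 81.6, 77.9 and 58.8 CPM in lung. Uninjured meninges were above lung in every library, and injured meninges 1 overlapped uninjured meninges. The value of Rplp2 after injury depended on which library was left out, reaching 0.10 without injured meninges 3.

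Rpl5 and Rpl11, which with the 5S ribosomal RNA form the particle that binds Mdm2 when ribosome assembly is disturbed, and Rpl23, which binds Mdm2 as well, had small values. Their log2 fold changes were -0.11 ± 0.22, -0.22 ± 0.32 and -0.20 ± 0.31 in injured against uninjured meninges, and 0.21 ± 0.22, 0.46 ± 0.32 and 0.20 ± 0.31 in meninges against lung. Rpl5 had 183, 224 and 215 CPM in injured meninges, 249.6, 236 and 185 CPM in uninjured meninges and 206, 201 and 173 CPM in lung, with all groups overlapping. Mdm2 itself had log2 fold changes of 0.11 ± 0.29 and 0.35 ± 0.29. The 8 members placed around the exit of the nascent chain had medians of -0.16 and 0.20. The 19 members whose human counterparts are mutated in Diamond-Blackfan anaemia had medians of -0.23 and 0.28, with 16 of 19 negative after injury and 17 of 19 positive against lung. These shares, 84.2% and 89.5%, were near the 81.5% and 86.4% of all 81 members tested, whose medians were -0.33 and 0.32.

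The paralogs that are related to a ribosomal protein gene were scarce and variable. Rpl7l1, a relative of Rpl7, had 7.81, 5.00 and 5.19 CPM in injured meninges, 10.9, 8.95 and 16.1 CPM in uninjured meninges and 49.8, 12.5 and 8.82 CPM in lung. It was lower in all injured than in all uninjured libraries, and lung 1 alone was far above the rest. Its log2 fold changes were -0.99 ± 0.80 after injury and -0.99 ± 0.79 against lung, and the value against lung turned to 0.17 without lung 1. Rpl22l1 had 8.16, 18.9 and 7.002 CPM in injured meninges, 7.33, 8.69 and 10.9 CPM in uninjured meninges and 10.5, 9.62 and 7.86 CPM in lung, with injured meninges 2 alone high. Rps27l, a relative of Rps27 that p53 is known to activate, had 10.4, 2.94 and 0.313 CPM in injured meninges, 10.0, 8.82 and 3.15 CPM in uninjured meninges and 7.42, 7.64 and 21.9 CPM in lung. Its groups overlapped in both comparisons.

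Ribosomal proteins outside the naming rule gave small values. Fau, Gnb2l1 (the Rack1 protein of the small subunit) and Rpl36al had log2 fold changes of -0.20 ± 0.45, 0.07 ± 0.31 and -0.41 ± 0.42 in injured against uninjured meninges and of 0.39 ± 0.45, 0.12 ± 0.31 and 0.19 ± 0.42 in meninges against lung. The sign of Gnb2l1 after injury turned to -0.01 with library totals as the only scaling. Proteins of the mitochondrial ribosome, a list added after the values were seen, had medians of -0.30 and 0.34 over 75 genes tested, with a wider spread than the cytosolic members (middle 50% between -0.99 and 0.50 after injury) and with 45 of 75 negative after injury. The edgeR test called none of them, where it called 0.192% (injury) and 0.635% (lung) of all genes tested. In each comparison 2 of the 75 had an unadjusted p under 0.05, where 8.94% (injury) and 7.98% (lung) of all genes tested did.

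Other genes of the translation pathway had medians nearer 0 or above it after injury. Of 20 further genes whose messages carry the TOP motif, 11 had positive and 9 negative values after injury with a median of 0.12, and 15 were positive against lung with a median of 0.19. The edgeR test called none of them, where it called 0.192% (injury) and 0.635% (lung) of all genes tested. In each comparison 2 of the 20 had an unadjusted p under 0.05, where 8.94% (injury) and 7.98% (lung) of all genes tested did. Eef1g, a subunit of the elongation factor complex, had 121, 90.1 and 134.8 CPM in injured meninges, against 156, 157.5 and 226 CPM in uninjured meninges and 111.7, 71.3 and 129.6 CPM in lung. It was higher in every library of uninjured meninges than in the others. Eif3l, a subunit of the initiation factor that binds the small subunit, ran the other way with 51.1, 92.4 and 79.5 CPM in injured meninges, against 38.7, 25.6 and 22.1 CPM in uninjured meninges and 50.02, 70.5 and 67.6 CPM in lung. Its log2 fold change after injury was 1.37 ± 0.39 (adjusted p = 0.296, edgeR quasi-likelihood test with Benjamini-Hochberg adjustment), and DESeq2 gave an adjusted p of 0.0362. Eef1a1, the most abundant of these genes among those named, had a value of 0.13 ± 0.18 after injury and 0.08 ± 0.18 against lung.

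The 26 initiation factors tested had medians of -0.03 after injury and 0.09 against lung, and the 34 ribosome biogenesis genes -0.11 and 0.07. The 15 genes of the RNA polymerase I machinery, which transcribes ribosomal RNA, had medians of 0.03 and 0.36. The edgeR test called none of these genes in either comparison, where it called 0.192% (injury) and 0.635% (lung) of all genes tested. At an unadjusted p under 0.05 were 4 after injury, namely Nle1, Nop58, Mdn1 and Cd3eap, and 0 against lung. Over all genes tested the shares at that level were 8.94% and 7.98%. Ncl, the nucleolar protein nucleolin, had 707, 901 and 722 CPM in injured meninges, against 643, 684 and 572 CPM in uninjured meninges and 444, 523 and 499.7 CPM in lung, a log2 fold change of 0.30 ± 0.18 after injury. Its injured libraries were all above the uninjured ones. Mdn1, which remodels the large subunit precursor, had a log2 fold change of -0.59 ± 0.25 after injury, and Nop58, a core protein of small nucleolar RNA particles, of -0.81 ± 0.35.

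A list of 24 genes tested, of mTORC1 signalling and TOP message control, also held Myc, Mxd1 and Mxi1. After injury 18 of the 24 had positive values, against 49.4% of all genes tested, with a median of 0.21, and edgeR called none. The 2 at an unadjusted p under 0.05 were Mxd1 and Mxi1, where 8.94% of all genes tested had such a p. Against lung 13 were positive and 11 negative, with a median of 0.04. There 5 of the 24 had an unadjusted p under 0.05, against 7.98% of all genes tested. Larp1 had 243, 207 and 176.5 CPM in injured meninges, 204, 177 and 217 CPM in uninjured meninges and 164, 162 and 157 CPM in lung, with overlap after injury and meninges above lung. Over all genes tested, edgeR called 0.192% after injury and 0.635% against lung. Mxd1, a repressor that competes with Myc for its partner Max, was the single gene of the mTORC1, translation stress and ribosome quality control lists to be called by edgeR. It had 29.3, 35.2 and 12.3 CPM in uninjured meninges, against 106, 376 and 358 CPM in lung, a log2 fold change of -3.45 ± 0.52 (adjusted p = 0.00325, edgeR quasi-likelihood test with Benjamini-Hochberg adjustment). In injured meninges it had 51.3, 111.5 and 134 CPM, all above uninjured meninges, with a log2 fold change of 1.95 ± 0.49 that passed under DESeq2 (adjusted p = 0.00671) and not under edgeR (adjusted p = 0.192). Myc had 37.8, 81.7 and 29.5 CPM in injured meninges, 51.1, 91.2 and 105 CPM in uninjured meninges and 38.1, 35.3 and 37.8 CPM in lung, with overlap after injury and meninges above lung in every library. The medians of 16 translation stress genes were 0.00 and -0.33 and those of 13 ribosome quality control genes 0.08 and -0.13, after injury and against lung in that order, with none called by edgeR. At an unadjusted p under 0.05 stood 1 gene of each list after injury, where 8.94% of all genes tested did. Against lung 3 of the 16 stress genes and 0 of the 13 quality control genes did, where 7.98% of all genes tested did. The 3 were Cdkn1a, a cell cycle inhibitor, Ddit4, an inhibitor of mTORC1, and Ppp1r15a, which directs dephosphorylation of eIF2 alpha.

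DESeq2 called some genes of these lists that edgeR did not, and it called more genes over the whole table. Against lung it called 68 higher and 351 lower, where edgeR called 6 and 90. After injury it called 130 higher and 122 lower, where edgeR called 20 and 9. Cdkn1a had 6.73, 10.6 and 2.08 CPM in uninjured meninges, against 69.7, 74.1 and 120 CPM in lung, with no overlap. Its log2 fold change was -3.77 ± 0.91 (adjusted p = 0.0894, edgeR quasi-likelihood test with Benjamini-Hochberg adjustment), and DESeq2 gave an adjusted p of 0.000243. Ddit4 had 53.0, 52.2 and 53.7 CPM in uninjured meninges, against 8.58, 16.6 and 15.3 CPM in lung, again with no overlap. Its log2 fold change was 1.97 ± 0.52 (adjusted p = 0.134, edgeR quasi-likelihood test with Benjamini-Hochberg adjustment), and DESeq2 gave an adjusted p of 0.0126. With only the 6 libraries compared, edgeR called both genes, with adjusted p-values of 0.00588 for Cdkn1a and 0.0426 for Ddit4, and it also did so without injured meninges 2, with 0.00163 and 0.0418. With no filter on low counts, edgeR called Ddit4 as well (adjusted p = 0.0355). Rheb, the GTPase that activates mTORC1, had a log2 fold change of -1.16 ± 0.35 against lung, with an adjusted p of 0.223 under edgeR and 0.0390 under DESeq2.

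**Figure D5:**
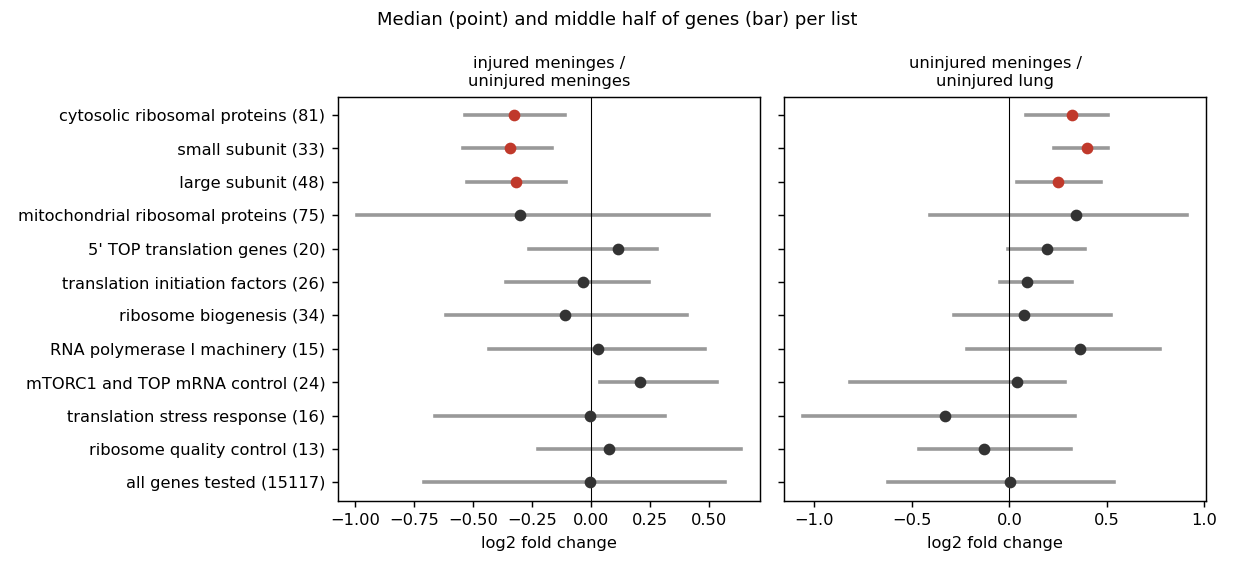
Median log2 fold change (points) and the middle 50% of genes (bars) for ribosomal protein genes (red), for other lists of the translation pathway and for all genes tested (black), with the number of genes tested in brackets; injured against uninjured meninges on the left, uninjured meninges against uninjured lung on the right. The cytosolic and mitochondrial ribosomal proteins have the lowest medians on the left, -0.33 and -0.30.

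Members with and without a long C and T run at the start had similar medians, a description without a test. The 39 members with a run of at least 8 bases in the window shown above had medians of -0.27 after injury and 0.28 against lung, and the 21 members in the table without such a run had medians of -0.34 and 0.28. The 21 tested members outside the promoter table had medians of -0.33 and 0.37. Among other protein-coding genes with a coding region under 500 bases, a length typical of the members, the median was -0.11 after injury and 0.01 against lung over 938 genes, and 0.02 and -0.06 over the 429 of them with a mean of at least 10 CPM.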

How the data were processed

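RNA of 9 ILC2 libraries in 3 groups was sequenced after amplification with the Ovation RNA-Seq System, per the labels' protocols. The authors deposited unnormalized whole-number counts of reads per gene, and the submitters' processing notes name FastQC, STAR, HTSeq and the mm9 build, with no versions. Whether counting used strand is not stated, so overlapping and antisense genes cannot be told apart. The authors' symbols were kept where given, 7407 empty ones were filled by Ensembl identifier and 90 genes stayed unnamed. The members, the gene lists and the rule for naming genes were chosen with earlier results of these data known. That rule takes the 6 members with the smallest p in each comparison, the 3 highest and 3 lowest per kilobase of coding length, the stalk, 5S particle and paralog members, and up to 3 genes with the smallest p of each list. Other genes were named after their values were seen.

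Counts were tested with edgeR 4.0.16 (R 4.3.3), using filterByExpr by group (15117 genes kept), TMM scaling, robust quasi-likelihood F tests in 1 fit over 9 libraries, and Benjamini-Hochberg adjustment over all genes, with calls at an adjusted p under 0.05. Each SE was taken as the log2 fold change over the root of its F value. Levels are CPM with TMM. Coding lengths came from GENCODE M21 by identifier, as the longest coding sequence among a gene's transcripts, and promoters from RefSeq (GRCm38.p6). Limits on counts of 0 cover counting error alone, since reads from amplified RNA are not independent. The procedure was run on simulated counts with fold changes larger than the members' medians. Recovery of differences as small as those medians was not tested. All pairs of libraries differed by more than sampling noise (lowest chi-square per degree of freedom 62.8). Alternatives were DESeq2 1.42.0, other scalings and filters, the 6 libraries compared alone, a replicate block and leaving out each library. The values of 1 member are not reported here by name, while it stays in the counts and medians.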

Additional observations from a re-analysis of the deposited data

How the results depend on the processing

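No ribosomal protein gene was called in either comparison under any of the 17 alternatives run, the smallest adjusted p of a member after injury being 0.226 (Rpl30, DESeq2). The members' median after injury ran from -0.40 to -0.31 over the scaling alternatives and from -0.45 to -0.17 over the fits that leave out 1 library, and that against lung from 0.30 to 0.45 and from 0.24 to 0.38. With library totals as the only scaling the median against lung was 0.445, where the median of all genes also shifted to 0.10. The number of genes called over the whole table depended on the tool. After injury it was 29, against 252 with DESeq2 (130 higher and 122 lower), 78 without a filter on low counts, 12 with only the 6 libraries compared and 18 to 27 when 1 library was left out, lowest without injured meninges 2 (18) and uninjured meninges 2 (19). Against lung it was 96, against 419 with DESeq2, 193 without a filter, 226 with only the 6 libraries and 51 to 196 when 1 library was left out, from without lung 3 (51) and uninjured meninges 2 (53) to without injured meninges 2 (196). With a replicate block, 43 and 136 genes were called and the members' medians were -0.36 and 0.33, with no member called. Same-numbered libraries correlated by -0.018 to 0.0955, so the numbers were not taken to pair them. Means of the summed share without mitochondrial ribosomal RNA in the totals were 0.906%, 1.17% and 0.872% in injured meninges, uninjured meninges and lung, and the mean of uninjured meninges without Rpl4 was 0.777%. The cause of these shifts was not tested.

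Some genes far from the threshold changed sign. After injury, leaving out 1 library gave log2 fold changes of -0.021 to 0.30 for Rps3a1, -0.008 to 0.33 for Rpl23a, -0.24 to 0.60 for Rpl22l1, -0.57 to 0.10 for Rplp2, -0.091 to 2.25 for Ankzf1, -0.36 to 0.004 for Fau, -0.10 to 0.35 for Gnb2l1 and -0.12 to 1.30 for Rnf10, and library totals alone gave -0.013 for Gnb2l1. Against lung, it gave -0.034 to 0.16 for Rps27, -0.027 to 0.066 for Rpl23a, -1.38 to 0.17 for Rpl7l1 and -0.22 to 0.062 for Rpl22l1. For Rpl23a the sign against lung also turned with DESeq2 and its size factors (-0.017 for both), without a filter (-0.005) and with only the 6 libraries (-0.014), and for Rpl22l1 with library totals alone (0.038).

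At 3 libraries a group, the median SE of the members was 0.36, and members under 20 CPM had SE values of 0.80 to 2.02 after injury, so differences as small as the medians given were not detectable for single genes.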
